A study of Homo sapiens with 22 samples.

Results

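Long intergenic non-coding RNAs (genes whose symbol is LINC followed by digits) and microRNA host genes (symbols beginning MIR and ending HG) were followed in H1299, an established line from a human non-small cell lung cancer, carrying a doxycycline (DOX)-inducible short hairpin RNA against BRCA2. The members were chosen on measured values: 189 such genes, 170 LINC genes and 19 microRNA hosts, had a mean raw count of at least 20 over the 22 libraries, of 37908 genes in the count table and of 15135 genes that reached the same mean. A further 1078 LINC or microRNA host symbols had counts below that mean and 13 had none. The lowest members inside the threshold were LINC01465 at a mean of 20.2 raw counts and LINC02041 at 20.6, and the highest outside it were LINC00960 at 19.9 and LINC00471 at 19.8. In 56 of the 189 members at least 1 group had a mean raw count under 20, so these entered through the groups in which they were higher. The annotation classed 183 members as long non-coding RNA genes.

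The 8 groups crossed BRCA2 status with GSK3 inhibition and β-catenin knockdown, and every culture carried the hairpin construct. BRCA2-proficient cells received no DOX, and BRCA2-deficient cells received 2 µg/mL DOX for 3 days. Within each background, cells were transfected with control siRNA and left untreated, transfected with control siRNA and given the GSK3 kinase inhibitor LY2090314 at 250 nM for 24 h (GSK3i), transfected with siRNA against CTNNB1, which encodes β-catenin (siCTNNB1), or given both (GSK3i+siCTNNB1). There were 3 libraries per group, except 2 in the BRCA2-proficient untreated group and 2 in the BRCA2-proficient siCTNNB1 group, where replicates 2 and 3 were analysed here. No group received DOX without the hairpin, so DOX and BRCA2 depletion cannot be told apart. The libraries were made from poly(A) RNA of 1 engineered line, and held 18938266 to 29280122 counted reads each.

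LINC genes are transcribed by RNA polymerase II from stretches between protein-coding genes, and are usually spliced and polyadenylated like messenger RNAs but have no known protein product. A microRNA host gene gives a longer transcript, from which the hairpin of a microRNA is cut by DROSHA in the nucleus before DICER1 trims it to the mature form. Poly(A) RNA-seq counts what is left of the host transcript and not the mature microRNA. GSK3 marks β-catenin for destruction, so its inhibition lets β-catenin accumulate and act on genes with the transcription factors TCF and LEF.

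The mature microRNAs of the hosts that the results below turn on are given here, from RefSeq on GRCh38.p14, written 5′ to 3′ with the seed, bases 2 to 8, in capitals. From RefSeq, 47 mature microRNAs were taken for 17 of the 19 hosts. For the other hosts none was taken, which does not show that RefSeq places none in them. MIR503HG carries miR-503, MIR1915HG miR-1915, MIR22HG miR-22 and MIR600HG miR-600, MIR100HG carries miR-100, let-7a and miR-125b, MIRLET7BHG carries let-7b with a further copy of let-7a, and MIR222HG carries miR-221 and miR-222.
miR-503-5p (chrX:134546371-134546393, - strand): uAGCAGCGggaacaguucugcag
miR-1915-3p (chr10:21496576-21496595, - strand): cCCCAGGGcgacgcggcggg
miR-22-3p (chr17:1713914-1713935, - strand): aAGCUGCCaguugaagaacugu
miR-600 (chr9:123111561-123111583, - strand): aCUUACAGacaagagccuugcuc
miR-100-5p (chr11:122152275-122152296, - strand): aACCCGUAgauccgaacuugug
let-7a-5p (chr11:122146568-122146589, - strand): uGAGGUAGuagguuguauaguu
miR-125b-5p (chr11:122099809-122099830, - strand): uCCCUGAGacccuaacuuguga
let-7b-5p (chr22:46113691-46113712, + strand): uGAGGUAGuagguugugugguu
miR-221-3p (chrX:45746180-45746202, - strand): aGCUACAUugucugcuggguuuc
miR-222-3p (chrX:45747036-45747056, - strand): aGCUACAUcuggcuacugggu
The seed GAGGUAG was shared by let-7a and let-7b across MIR100HG and MIRLET7BHG, and the seed GCUACAU by miR-221-3p and miR-222-3p within MIR222HG.

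Before the comparisons, the labels were checked. BRCA2 stood at 694.8 to 847.5 normalised counts in the BRCA2-proficient untreated libraries against 71.4 to 179.1 in the BRCA2-deficient untreated ones, and CTNNB1 at 7451 to 7480 in the former against 977 to 2217 over all libraries with siCTNNB1. Normalised counts here are raw counts divided by a size factor per library. VIM had a mean of 23760 and KRT18 of 7369, while EPCAM averaged 10.9, KRT19 2.53, the leukocyte gene PTPRC 0.199 and the endothelial gene CDH5 0.726. KRT8 fell with GSK3i, with log2 fold changes of -1.15 and -1.31 in BRCA2-proficient and BRCA2-deficient cells. These markers belong to the line, and their part in the results was not tested.

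A pair of BRCA2-proficient libraries went against their labels on GSK3i. PDCD4, YPEL2 and ABTB1, genes low under GSK3i and chosen for this check after their values were seen, had 105 to 164, 9.02 to 44.3 and 89.1 to 232 normalised counts in the other 11 libraries labelled as given GSK3i, against 1291 to 1920, 232 to 368 and 1072 to 1807 in 8 libraries labelled as not given it. The library labelled GSK3i+siCTNNB1 replicate 2 had 1998, 304 and 1303, as in cells without the inhibitor. The library labelled siCTNNB1 replicate 2 had 291, 35.3 and 144, near the range with it, and siCTNNB1 replicate 3 lay between both ranges at 1056, 126 and 617. AXIN2, a target of β-catenin, gave the same picture for the first library and not for the second. It had 73.1 normalised counts in GSK3i+siCTNNB1 replicate 2 against 145 and 117 in the other libraries of its group, and 67.2 and 65.0 in siCTNNB1 replicates 2 and 3, as its label would have it, beside 82.4 and 72.3 in untreated cells. No library was moved to another group. The GSK3i and BRCA2 comparisons in control siRNA cells and all comparisons within BRCA2-deficient cells hold none of these libraries. The others are described with and without replicate 2 of each group.

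The members together took a smaller share of the counts under GSK3i with control siRNA. Their share was 0.135 to 0.142% in the 6 libraries given GSK3i with control siRNA, and 0.155 to 0.175% in the other 16, so that the ranges did not overlap. A share also falls when the counts of other genes rise. In BRCA2-proficient replicate 2 the members had 31580 of 19804435 counts untreated (size factor 0.861) and 30873 of 22104598 under GSK3i (0.879). In BRCA2-deficient replicate 2 they had 32885 of 20855217 (0.923) and 38148 of 27067507 (1.131). How much of the difference came from the members themselves was not tested. With 3 libraries against 3 in BRCA2-deficient cells an exact permutation test cannot go below a two-sided p of 0.10, and none is given. Per kilobase of annotated exon, the mean over all libraries among the 6 members with the most counts was highest for MIR22HG, at 301 normalised counts per kilobase. LINC00665 had 206, LINC00963 205, LINC02864 148, LINC00938 86.6 and MIR100HG 34.1 on that scale.

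**Figure D1:**
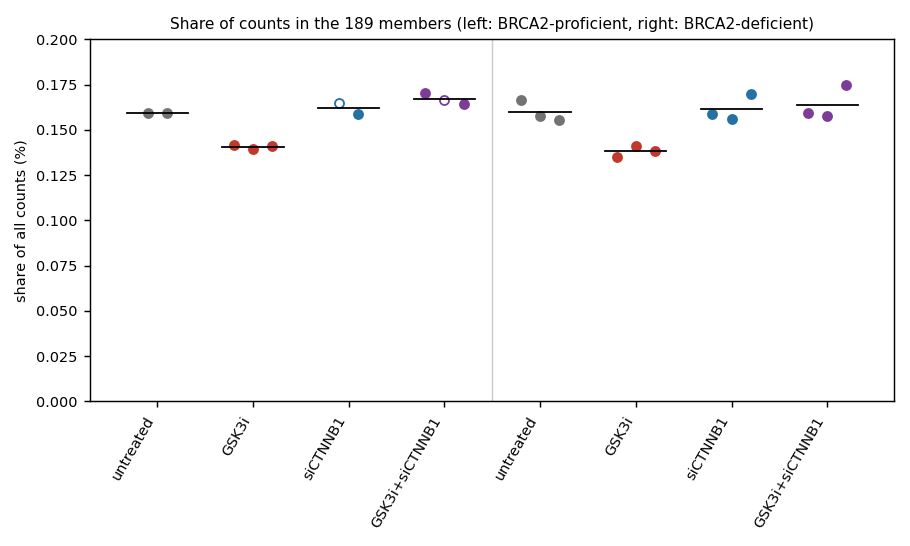
Share of all counted reads (percent, vertical axis from 0) that fell in the 189 members, 1 point per library, by group, with the group mean as a bar; open points are the BRCA2-proficient libraries labelled siCTNNB1 replicate 2 and GSK3i+siCTNNB1 replicate 2. The 6 GSK3i libraries with control siRNA lie at 0.135 to 0.142%, below the other 16. A share also depends on the counts of all other genes.

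The response to GSK3i asks which of these RNAs change when GSK3 is inhibited, a treatment that lets β-catenin accumulate. A gene was called at an adjusted p under 0.05 in DESeq2 with a log2 fold change above 0.5 or below -0.5. In BRCA2-proficient cells 50 of 188 tested members were called, 17 higher and 33 lower, or 26.6%, beside 26.1% of all 16771 genes tested (11.8% higher and 14.2% lower). BRCA2-deficient cells gave 52 of 189, 14 higher and 38 lower, or 27.5%, beside 25.4% of all genes (11.6% higher and 13.8% lower). The share called was thus near that of all genes, while the median log2 fold change of the members was -0.24 and -0.25, with 129 of 188 and 116 of 189 below 0, beside -0.0 and 0.02 for all genes tested. Among the 133 members whose mean raw count was at least 20 in every group, the medians were -0.17 and -0.13. The same 33 members were called in the same direction in both backgrounds, 9 higher and 24 lower, which is 66% of the 50 and 63.5% of the 52, and none was called in opposite directions. Shared calls, here and below, were not counted over all genes, so they are not read as particular to the members. Leaving out either BRCA2-proficient untreated library gave 23 called members in place of 50, the replicate number as a block gave 26, and leaving out BRCA2-deficient GSK3i replicate 2 gave 33 in place of 52. Across 188 members the fold changes in both backgrounds had a Pearson r of 0.88, a description over RNAs measured in the same libraries.

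**Figure D2:**
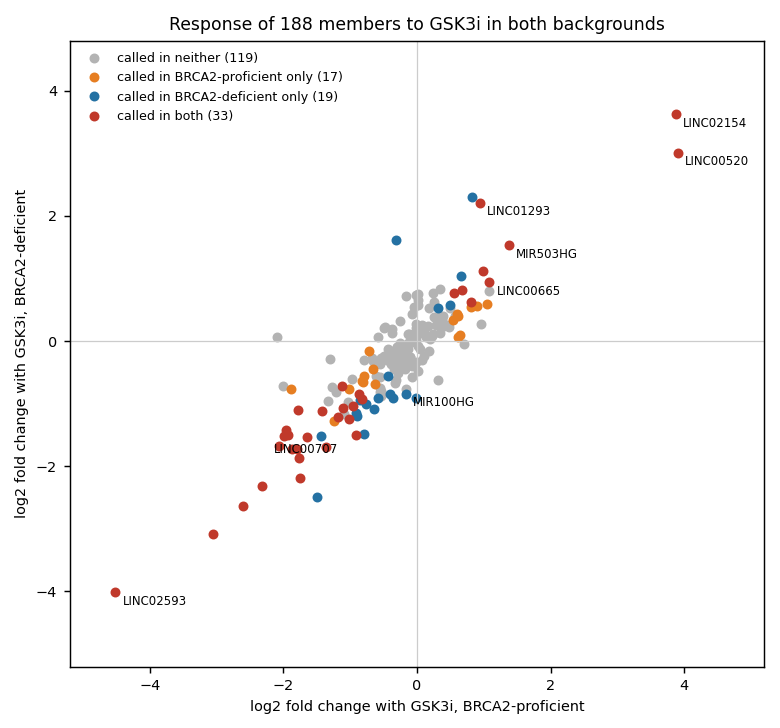
Log2 fold change with GSK3i in BRCA2-proficient cells (horizontal) against that in BRCA2-deficient cells (vertical), 1 point per member, coloured by the background in which it was called. The 33 members called in both run from LINC02593 at -4.52 and -4.01 to LINC02154 at 3.87 and 3.63.

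The strongest falls with GSK3i were in LINC02593, which lies at chr1:852245-856396 (- strand) on GRCh37, head to head with SAMD11. In BRCA2-deficient cells LINC02593 had 372, 122 and 238 normalised counts untreated and 11.5, 15.9 and 17.9 under GSK3i. The difference was -4.01 ± 0.44, adjusted p = 8.35e-18 (log2 fold change ± SE, as below). In BRCA2-proficient cells the counts were 82.4 and 108 untreated and 5.82, 5.69 and 1.13 under GSK3i (-4.52 ± 0.59, adjusted p = 9.15e-13). The fall was also there in siCTNNB1 cells without BRCA2, from 248, 321 and 351 to 22.01, 21.2 and 38.4 (-3.47 ± 0.28, adjusted p = 2.7e-32). SAMD11, the nearest protein-coding gene, 2907 bases away on the opposite strand, fell with it, at -2.42 ± 0.34 and -2.53 ± 0.28 in the proficient and the deficient background. Over the 8 group means, 2 of which hold a library that went against its label, the log2 levels of LINC02593 and SAMD11 had a Pearson r of 1.0.

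LINC02035, at chr3:122605788-122611263 (+ strand), fell with GSK3i from 135 and 99.9 normalised counts to 40.8, 36.4 and 19.2 in BRCA2-proficient cells (-1.88 ± 0.38, adjusted p = 6.61e-06). It fell from 194, 181 and 99.3 to 68.7, 39.8 and 36.7 in BRCA2-deficient cells (-1.72 ± 0.36, adjusted p = 2.74e-05). SLC49A4, a lysosomal transporter gene 5802 bases away on the same strand, changed by -1.39 and -0.92, called in both. LINC02475, at chr4:44018717-44024080 (+ strand), showed 136, 189.6 and 139 untreated and 26.4, 41.6 and 33.97 under GSK3i in BRCA2-deficient cells (-2.18 ± 0.3, adjusted p = 2.43e-11), and -1.76 ± 0.31 in BRCA2-proficient cells. LINC01096, 1567 bases from the homeobox gene NKX3-2 on the same strand, fell in BRCA2-deficient cells from 187, 184 and 148 to 93.9, 73.4 and 81.4 (-1.07 ± 0.24, adjusted p = 9.17e-05), and NKX3-2 fell with it, at -1.45 and -1.25 in the 2 backgrounds. In each of these groups every GSK3i library was below every untreated one, which the choice of named members required for LINC02035 and LINC02475.

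LINC00886, LINC00707 and LINC03072 also fell in both backgrounds, and their levels differed between backgrounds too. LINC00886, at chr3:156465132-156534851 (- strand), had 251 and 232 normalised counts untreated and 52.4, 73.96 and 57.5 under GSK3i where BRCA2 was present (-1.99 ± 0.26, adjusted p = 1.89e-12), and 407, 444 and 377 against 135, 141 and 151 in BRCA2-deficient cells (-1.52 ± 0.19, adjusted p = 2.69e-14). For LINC00707, at chr10:6821511-6884868 (+ strand), the counts were 1430.3 and 1075 untreated and 309.8, 281 and 403 under GSK3i in BRCA2-proficient cells (-1.93 ± 0.19, adjusted p = 2.16e-21). It fell to 219, 187 and 227 from 558, 639 and 588 in BRCA2-deficient cells (-1.5 ± 0.18, adjusted p = 3.23e-15). LINC03072 stood at -1.42 ± 0.26 and -1.11 ± 0.21, called in both.

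Of the RNAs that rose, LINC02154 and LINC00520 rose most and came from levels near the floor of the data. LINC02154, at chrX:13284160-13321571 (- strand), had 11.9, 7.58 and 6.14 normalised counts untreated and 125, 119 and 70.6 under GSK3i in BRCA2-deficient cells (3.63 ± 0.46, adjusted p = 1.67e-13). In BRCA2-proficient cells it went from 1.16 and 5.71 to 44.3, 91.02 and 22.6 (3.87 ± 0.78, adjusted p = 8.07e-06). LINC00520, at chr14:56247850-56263449 (- strand), had 20.2, 11.9 and 14.3 against 169.5, 102 and 102 in BRCA2-deficient cells (3.01 ± 0.39, adjusted p = 1.32e-12) and 1.16 and 4.76 against 58.2, 55.8 and 25.9 in BRCA2-proficient cells (3.9 ± 0.77, adjusted p = 5.11e-06). All GSK3i libraries were above all untreated ones, which the choice of named members required in BRCA2-deficient cells. The BRCA2-proficient untreated counts of both are a few reads per library, so the size of those fold changes is uncertain.

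LINC01293, LINC00665 and LINC02610 rose from higher levels. LINC01293, at chr2:75167385-75169797 (+ strand), had 66.2 and 82.8 normalised counts untreated and 142, 152 and 141 under GSK3i in BRCA2-proficient cells (0.94 ± 0.27, adjusted p = 0.0024). That call was lost with the replicate number as a block (0.97, adjusted p = 0.0638), in 1 model over all groups (0.95, adjusted p = 0.124) and without untreated replicate 2 (0.8, adjusted p = 0.112). The rise was from 54.7, 53.1 and 53.2 to 209.6, 286 and 249 in BRCA2-deficient cells (2.21 ± 0.24, adjusted p = 3.39e-17). LINC00665, the second most counted member, went from 2105 and 1890.2 to 4075, 4187 and 4533 (1.08 ± 0.13, adjusted p = 4.24e-15) and from 1217, 1332 and 1292 to 2433, 2561 and 2383 (0.94 ± 0.13, adjusted p = 8.01e-11). LINC02610, 6556 bases from HES6, a gene of the HES family of transcriptional repressors, on the same strand, rose from 51.2, 35.7 and 52.2 to 77.9, 112 and 112 in BRCA2-deficient cells (1.12 ± 0.31, adjusted p = 0.00208), and HES6 rose by 0.96 and 1.14 in the proficient and the deficient background. The rise of LINC02610 in BRCA2-proficient cells (0.99 ± 0.32, adjusted p = 0.00924) lost its call without GSK3i replicate 1 (0.96, adjusted p = 0.0574) or replicate 2 (0.96, adjusted p = 0.0775) or untreated replicate 3 (0.76, adjusted p = 0.25), or with the replicate number as a block (0.96, adjusted p = 0.138).

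**Figure D3:**
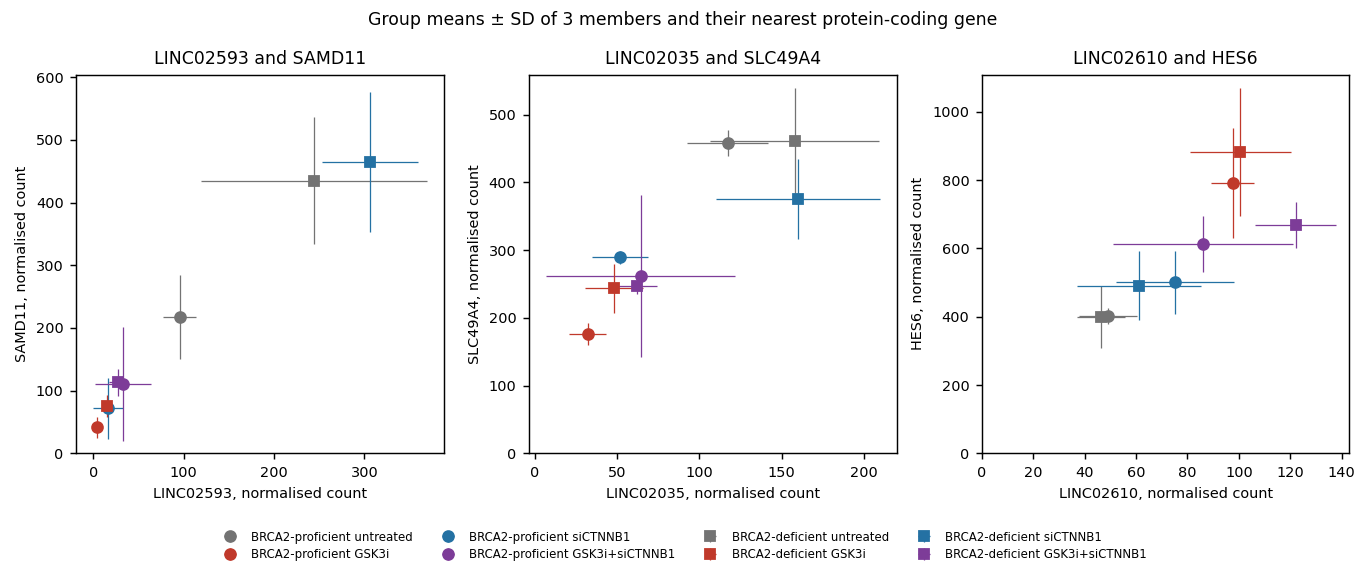
Group means ± SD of normalised counts for LINC02593 with SAMD11, LINC02035 with SLC49A4 and LINC02610 with HES6, 1 point per group, circles for BRCA2-proficient and squares for BRCA2-deficient cells, both axes linear. The GSK3i points lie at the low end for the first pair of panels and towards the high end for the last; Pearson r of the log2 group means was 1.0, 0.93 and 0.9.

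The nearest protein-coding gene of each called member was looked up in the same comparison. Of the 50 members called with GSK3i in BRCA2-proficient cells, 45 had a tested neighbour, which was called in the same direction in 12 and in the opposite direction in 4, where 11.8% of all genes were called higher and 14.2% lower. In BRCA2-deficient cells the numbers were 46 tested, 8 the same and 4 opposite, of 52, where 11.6% of all genes were higher and 13.8% lower. A neighbour that was not called may still have changed. For MIR503HG, LINC00520, LINC02154 and LINC00707 the log2 levels of member and neighbour had, over the 8 group means, a Pearson r of -0.12, 0.02, -0.6 and 0.0. It was -0.71 for LINC01128 with SAMD11, also the neighbour of LINC02593, and -0.78 for LINC03072 with METTL2B. By annotation 108 members overlap a gene on the other strand and 76 one on the same strand. The strand setting of the counting is not given in the sources used here, so reads of overlapping genes could have been shared or left uncounted.

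Adding siCTNNB1 to GSK3i asks which of the changes depend on β-catenin, and in BRCA2-deficient cells, where the labels held, it lowered a pair of microRNA hosts. Here 10 of 188 tested members were called, 8 higher and 2 lower, or 5.32%, beside 5.52% of 17025 genes (2.95% higher and 2.57% lower). The median log2 fold change of the members was 0.17 with 130 of 188 above 0, beside -0.02 for all genes tested. These comparisons share the GSK3i libraries with the comparisons above, so values of both are set side by side for each member.

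MIR503HG was the member with the largest fall. It lies at chrX:133677149-133680672 (- strand) on GRCh37 and carries miR-503, whose sequence is given above. In BRCA2-deficient cells its normalised counts were 113, 58.5 and 101 untreated, 213, 313 and 264 under GSK3i, 76.5, 61.5 and 109.8 with siCTNNB1 and 76.03, 78.6 and 69.3 with both. All 3 GSK3i libraries were thus above all 9 others. The rise with GSK3i was 1.53 ± 0.29, adjusted p = 2.71e-06, the difference between GSK3i+siCTNNB1 and GSK3i -1.83 ± 0.23, adjusted p = 5.46e-12, and GSK3i made a difference of -0.15 ± 0.28, adjusted p = 0.764 in siCTNNB1 cells. The test of the difference between both GSK3i responses gave -1.69 ± 0.4, adjusted p = 0.00573, with an adjusted p of 0.204 in edgeR, and it was not called without GSK3i replicate 2 (-1.55, adjusted p = 0.0783) or siCTNNB1 replicate 3 (-1.43, adjusted p = 0.0642).

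In BRCA2-proficient cells MIR503HG had 75.5 and 114 normalised counts untreated, 359.9, 159 and 228 under GSK3i and 99.7, 73.1 and 52.8 with both, the middle value of the last group being the library labelled replicate 2 that looked untreated by the inhibitor. MIR503HG rose with GSK3i by 1.37 ± 0.32, adjusted p = 0.000124 and fell with siCTNNB1 under GSK3i (-1.7 ± 0.35, adjusted p = 9.46e-05). Without that library the fall was -1.69, adjusted p = 9.96e-05. In edgeR with all libraries its adjusted p was 0.0533.

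MIR1915HG was the other host that fell. It lies at chr10:21779201-21786189 (- strand), and its transcript carries miR-1915. In BRCA2-deficient cells it had 186, 178 and 148 normalised counts untreated, 246, 229 and 264 under GSK3i and 122, 109.8 and 72.3 with GSK3i+siCTNNB1. The rise with GSK3i (0.53 ± 0.2, adjusted p = 0.0319) was called with all libraries and lost in edgeR (0.51, adjusted p = 0.0563) and without any 1 of the 6 libraries (0.44 to 0.59, the adjusted p lying between 0.0553 and 0.167). MIR1915HG fell with siCTNNB1 under GSK3i (-1.29 ± 0.25, adjusted p = 2.21e-05) to values all below those of untreated cells. With siCTNNB1 alone the counts were 139, 111 and 97.3, also below every untreated library, at -0.56 ± 0.22, adjusted p = 0.196. Unlike for MIR503HG, the test of the difference between GSK3i responses was not passed (-0.74 ± 0.31, adjusted p = 0.535). In BRCA2-proficient cells the counts were 225, 213 and 195 under GSK3i and 109.8, 158 and 106 with both (-0.73 ± 0.24, adjusted p = 0.0402, and adjusted p = 0.0735 with the replicate number as a block and 0.131 in edgeR), and the fall was -0.95, adjusted p = 0.000569, without the doubted replicate 2, whose count was the highest of its group. Without any other single library the fall was not called (-0.63 to -0.79, the adjusted p lying between 0.132 and 0.272).

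**Figure D4:**
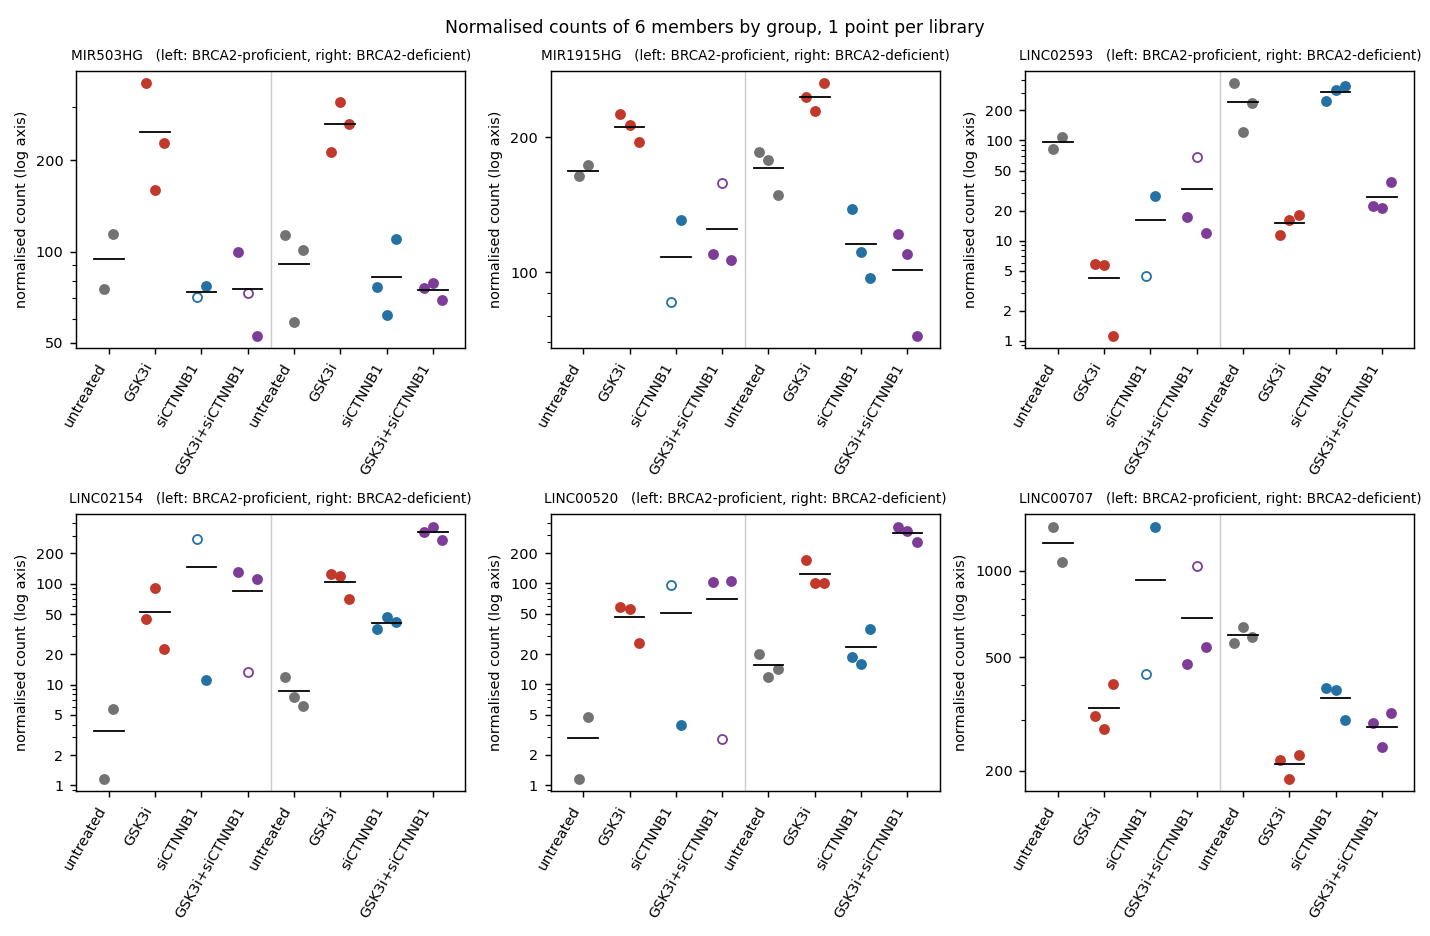
Normalised counts (log axis) of MIR503HG, MIR1915HG, LINC02593, LINC02154, LINC00520 and LINC00707 in the 8 groups, BRCA2-proficient on the left of each panel and BRCA2-deficient on the right, 1 point per library with the group mean as a bar. Open points are the 2 BRCA2-proficient libraries that went against their labels; in BRCA2-deficient cells MIR503HG is at 213 to 313 under GSK3i and at most 113 in the other groups, while LINC02154 and LINC00520 are highest with GSK3i+siCTNNB1.

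The promoters of both hosts, and of LINC02593, the RNA with the largest fall under GSK3i, are shown because TCF and LEF bind DNA next to a start site or at a distance. Each window runs from 250 bases before to 50 after the start in RefSeq on GRCh38.p14, 5′ to 3′ on the gene's strand, in lower case with any match to the searched motifs in capitals. The motifs, on both strands, were the TCF/LEF cores CTTTGAA with CTTTGAT and also CTTTGTA with CTTTGTT, the FOXO core TGTTTAC, the E2F cores TTTGGCG with TTTCCCG and also TTTCGCG and the E-box CACGTG; no match of one motif overlapped one of another in the windows shown.
MIR503HG promoter window (chrX:134546581-134546880, - strand): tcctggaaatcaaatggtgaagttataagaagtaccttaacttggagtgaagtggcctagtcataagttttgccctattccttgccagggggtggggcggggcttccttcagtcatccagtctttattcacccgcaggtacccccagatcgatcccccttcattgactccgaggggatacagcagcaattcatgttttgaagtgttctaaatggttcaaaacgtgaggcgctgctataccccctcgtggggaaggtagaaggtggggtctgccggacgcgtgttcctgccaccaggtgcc
MIR1915HG promoter window (chr10:21497211-21497510, - strand): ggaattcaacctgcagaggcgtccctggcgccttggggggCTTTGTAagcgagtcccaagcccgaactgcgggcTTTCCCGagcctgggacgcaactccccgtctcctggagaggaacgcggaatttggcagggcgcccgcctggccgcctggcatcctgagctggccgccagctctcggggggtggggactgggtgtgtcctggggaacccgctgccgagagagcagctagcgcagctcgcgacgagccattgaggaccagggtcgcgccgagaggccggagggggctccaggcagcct
LINC02593 promoter window (chr1:919643-919942, - strand): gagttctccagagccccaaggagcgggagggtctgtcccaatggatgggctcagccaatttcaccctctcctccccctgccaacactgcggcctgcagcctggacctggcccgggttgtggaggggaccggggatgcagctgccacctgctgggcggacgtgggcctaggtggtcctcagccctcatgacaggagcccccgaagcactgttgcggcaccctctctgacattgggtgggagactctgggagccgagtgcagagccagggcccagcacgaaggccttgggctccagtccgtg
MIR1915HG had a TCF/LEF core 210 bases and an E2F core 176 bases before the start, and MIR503HG had none of the motifs in its window. Of 118 members with a RefSeq promoter window, 5 (4.24%) held a TCF/LEF core, beside 13.9% of all 27305 windows; the other counts were 2 (1.69%) beside 3.41% for FOXO, 6 (5.08%) beside 7.28% for E2F and 4 (3.39%) beside 7.43% for the E-box. A match is a run of letters and not a measured site.

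Other RNAs moved the opposite way to the hosts, rising when siCTNNB1 was added to GSK3i. LINC02154 and LINC00520, already raised by GSK3i, went higher still in BRCA2-deficient cells, to 327, 369.8 and 273 normalised counts for LINC02154 (1.62 ± 0.26, adjusted p = 1.48e-07) and 366, 332 and 255 for LINC00520 (1.35 ± 0.27, adjusted p = 3.96e-05). Both calls were lost in 1 model over all 22 libraries (adjusted p = 0.272 and 0.446). That model also holds the doubted BRCA2-proficient libraries, and their part in the loss was not tested. LINC01293 was called higher too, at 313, 468 and 467 (0.74 ± 0.23, adjusted p = 0.0277), but not in edgeR (adjusted p = 0.109), in the 1 model (adjusted p = 0.311) or without any GSK3i library or GSK3i+siCTNNB1 replicate 2 or 3 (0.63 to 0.85, the adjusted p lying between 0.0765 and 0.251). In BRCA2-proficient cells the GSK3i+siCTNNB1 libraries had 131, 13.5 and 111 for LINC02154 and 103, 2.89 and 106 for LINC00520, the low value of each being the doubted replicate 2; without it LINC00520 was called higher (1.19) and so was LINC01293 (0.64).

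MIR22HG, host of miR-22, rose in BRCA2-deficient cells from 905, 844 and 821 normalised counts under GSK3i to 1458, 1316 and 1229.9 with siCTNNB1 added (0.63 ± 0.14, adjusted p = 0.000293). In BRCA2-proficient cells it was called without the doubted replicate 2 (0.58) and not with it (0.4 ± 0.22, adjusted p = 0.318). LINC00963, the most counted member, had 2449, 2288 and 1726 against 3450.2, 3682 and 2962 in BRCA2-deficient cells (0.64 ± 0.18, adjusted p = 0.0109) and rose in BRCA2-proficient cells with the doubted library (0.57) and without it (0.52). In edgeR neither call of LINC00963 held (adjusted p = 0.0877 and 0.119). LINC01111 fell with GSK3i, from 270.1, 367 and 216 to 90.5, 108 and 103 (-1.5 ± 0.26, adjusted p = 1.61e-07), and rose again to 198, 164 and 258 when siCTNNB1 was added (1.04 ± 0.25, adjusted p = 0.00147). That rise was not called in edgeR (adjusted p = 0.0573) or without GSK3i+siCTNNB1 replicate 3 (0.84, adjusted p = 0.0546).

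Over BRCA2-proficient cells as labelled, siCTNNB1 under GSK3i gave 12 called members of 189, 9 higher and 3 lower, or 6.35%, beside 5.1% of 16393 genes (3.18% higher and 1.92% lower), and edgeR called 0 with 45 at an unadjusted p under 0.05. Without GSK3i+siCTNNB1 replicate 2 DESeq2 called 15, 11 higher and 4 lower, beside 4.7% of 16630 genes (2.54% higher and 2.16% lower), and 9 of the 12 were among them. Of those 15, 8 were also called in the same direction in BRCA2-deficient cells, 53.3% of the 15 and 80% of the 10, namely MIR503HG and MIR1915HG lower and MIR22HG, LINC00520, LINC00963, LINC01111, LINC01293 and LINC02972 higher. With all libraries the shared number was 5. The count of members above 0 was 148 of 189 as labelled and 139 without the library, with medians of 0.25 and 0.22. LINC01106, called lower in BRCA2-proficient cells (-1.05 ± 0.3, adjusted p = 0.0132, and adjusted p = 0.0516 with the replicate number as a block), had 158, 124 and 94.7 under GSK3i and 63.5, 49.1 and 66.4 with both, was at -0.41 ± 0.29, adjusted p = 0.5 in BRCA2-deficient cells, and was not called without GSK3i replicate 1 (-0.86, adjusted p = 0.16) or replicate 2 (-1.06, adjusted p = 0.143). The difference between backgrounds was not tested.

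GSK3i was also compared within siCTNNB1 cells, and in BRCA2-deficient cells no doubted library entered. There 45 of 189 members were called, 20 higher and 25 lower, or 23.8%, beside 20.1% of 17610 genes (8.56% higher and 11.5% lower). No library is shared with the GSK3i comparison in control siRNA cells, and 31 members were called in the same direction in both, 59.6% of 52 and 68.9% of 45. LINC02154 rose by 2.98 ± 0.23, adjusted p = 4.85e-34, LINC00520 by 3.77 ± 0.29, adjusted p = 2.52e-34 and LINC02610 by 1.0 ± 0.3, adjusted p = 0.00584, while LINC02035 fell to 74.02, 62.5 and 50.5 from 209, 161 and 109.8 (-1.36 ± 0.29, adjusted p = 4.92e-05) and LINC00886 fell too (-1.11). LINC02610 was not called without GSK3i+siCTNNB1 replicate 3 (0.9, adjusted p = 0.0568), siCTNNB1 replicate 1 (0.89, adjusted p = 0.0683) or siCTNNB1 replicate 2 (0.8, adjusted p = 0.0706). MIR155HG, host of miR-155, rose from 12.6, 10.9 and 16.5 to 44.01, 37.3 and 27.9 (1.44 ± 0.43, adjusted p = 0.00637), was not called without siCTNNB1 replicate 1 (adjusted p = 0.0566) or 2 (adjusted p = 0.0589), and was not called with control siRNA (0.28 ± 0.52, adjusted p = 0.741).

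In BRCA2-proficient cells the same comparison as labelled called 0 of 189 members in DESeq2, with 0 at an unadjusted p under 0.05, and edgeR gave 0 and 0. It called 9 of 17010 genes, or 0.0529% (0.047% higher and 0.00588% lower). Without both libraries that went against their labels, which leaves siCTNNB1 replicate 3 alone in its arm, the library that lay between both ranges, 14 members were called, 12 higher and 2 lower, beside 3.75% of 29308 genes (2.1% higher and 1.65% lower), since with 3 libraries no gene could be filtered for low counts. LINC02154, LINC00520 and LINC01293 were among the 8 of these 14 that were also called with GSK3i in control siRNA cells.

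The tests of whether siCTNNB1 altered the response to GSK3i called few members. In BRCA2-deficient cells 2 of 189 were called, beside 0.486% of 18117 genes (0.149% with a positive and 0.337% with a negative difference), with 15 at an unadjusted p under 0.05 and 0 called in edgeR. MIR503HG, above, was one, and LINC00707 the other. LINC00707 had 558, 639 and 588 normalised counts untreated, 219, 187 and 227 under GSK3i, 389.9, 383 and 302 with siCTNNB1 and 293, 243 and 318 with both, so that the GSK3i difference was -1.5 ± 0.18 with control siRNA and stood at -0.32 ± 0.19, adjusted p = 0.221 with siCTNNB1. The difference was 1.16 ± 0.23, adjusted p = 0.000265, with an adjusted p of 0.089 in edgeR and of 0.526 in 1 model over all groups. LINC02475, not called here (1.26 ± 0.38, adjusted p = 0.1), passed with the replicate number as a block (1.26, adjusted p = 0.0111). In BRCA2-proficient cells 12 of 189 members were called, 10 positive and 2 negative, beside 7.63% of 17093 genes (3.87% positive and 3.77% negative), and edgeR called 0 with 40 at an unadjusted p under 0.05. Without both doubted libraries, again with siCTNNB1 replicate 3 alone in its arm, 3 of 189 were called, beside 3.52% of 16825 genes (1.88% positive and 1.63% negative), namely LINC00665 (-0.71), LINC00963 (0.96) and LINC02432 (0.93).

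Depletion of β-catenin without GSK3i moved few members. In BRCA2-deficient cells 4 of 189 (2.12%) were called, beside 2.03% of 17324 genes (1.21% higher and 0.82% lower), and edgeR called 0 with 22 at an unadjusted p under 0.05. LINC02154 rose from 11.9, 7.58 and 6.14 normalised counts to 35.3, 46.4 and 41.6 (2.29 ± 0.47, adjusted p = 0.000452). LINC02076 fell to 38.7, 21.9 and 35.3 from 107, 68.2 and 59.4 (-1.28 ± 0.35, adjusted p = 0.0185), LINC00511 to 136, 110.4 and 86.3 from 213, 209 and 208 (-0.92 ± 0.22, adjusted p = 0.0049) and LINC00707 fell as well (-0.73 ± 0.17). LINC02076 lost its call in 1 model over all groups (adjusted p = 0.154), without any siCTNNB1 library (adjusted p from 0.0698 to 0.151) and without untreated replicate 1 (adjusted p = 0.149) or 2 (adjusted p = 0.103). The call of LINC00511 was lost without siCTNNB1 replicate 3 (-0.77, adjusted p = 0.0548) or untreated replicate 2 (-0.94, adjusted p = 0.0932). That of LINC00707 was lost without untreated replicate 2 (-0.69, adjusted p = 0.13) and in 1 model over all groups (-0.73, adjusted p = 0.221). In BRCA2-proficient cells the 4 called members of 189, beside 2.97% of 17654 genes (1.01% higher and 1.96% lower), were LINC02593 (-2.56), MIR23AHG (-0.95), LINC02432 (-0.72) and LINC00665 (0.79), and edgeR called 0 with 26 at an unadjusted p under 0.05. Leaving out either siCTNNB1 library left 1 in its arm, so calls from these fits are not given here. Without replicate 2, the intermediate replicate 3 stood alone and LINC00665 was at 0.59. Without replicate 3, the arm was replicate 2, the library near the range with GSK3i, so that fit is not read as a result about the members.

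BRCA2 depletion in untreated cells, with DOX as its only agent, asks how the members differ between backgrounds. In it 11 of 187 tested members were called, 7 higher and 4 lower, or 5.88%, beside 6.91% of 17157 genes (2.77% higher and 4.14% lower), with 25 members given no adjusted p by DESeq2. Under GSK3i 13 of 185 were called, 8 higher and 5 lower, or 7.03%, beside 6.81% of 16336 genes (3.76% higher and 3.05% lower). These comparisons share no library, and 6 members were called in the same direction in both, LINC00665, LINC00707 and LINC02535 lower and LINC00886, LINC01778 and LINC03072 higher, which is 54.5% of the 11 and 46.2% of the 13. These counts were sensitive to single libraries. Untreated, 1 member was called without BRCA2-proficient replicate 3, and 4 in edgeR or with the replicate number as a block. Under GSK3i, 21 were called without BRCA2-deficient replicate 1, and 6 without replicate 2, without BRCA2-proficient replicate 3 or in edgeR.

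LINC00665 was lower in BRCA2-deficient cells whether untreated (-0.66 ± 0.16, adjusted p = 0.00142) or under GSK3i (-0.8 ± 0.12, adjusted p = 7.81e-09), by the counts given above. LINC00707 was lower untreated (-1.1 ± 0.2, adjusted p = 5.07e-06) and under GSK3i (-0.66 ± 0.21, adjusted p = 0.0225). LINC02535, between NT5E, which encodes the ectonucleotidase CD73, and the next gene, had 238 and 219 normalised counts in BRCA2-proficient and 146, 119 and 150.4 in BRCA2-deficient untreated cells (-0.74 ± 0.24, adjusted p = 0.0304). LINC00886 was higher, at 0.74 ± 0.2, adjusted p = 0.00601 untreated and 1.21 ± 0.25, adjusted p = 6.64e-05 under GSK3i. LINC01778, chosen after its values were seen, had 18.6, 9.1 and 14.7 against 57.3, 41.6 and 51.9 under GSK3i (1.82 ± 0.42, adjusted p = 0.000693), and untreated 13.9 and 14.3 against 48.8, 38.99 and 41.96 (1.59 ± 0.48, adjusted p = 0.0189). LINC00520 was higher in BRCA2-deficient cells under GSK3i, 169.5, 102 and 102 against 58.2, 55.8 and 25.9 (1.4 ± 0.36, adjusted p = 0.00243), and LINC01293 was higher there by 0.77 ± 0.21, adjusted p = 0.00477. In untreated cells, with 2 BRCA2-proficient libraries, the calls of LINC00665, LINC02535 and LINC00886 were each lost without untreated BRCA2-proficient replicate 2 (-0.59, -0.69 and 0.79) or replicate 3 (-0.75, -0.81 and 0.68) or BRCA2-deficient replicate 2 (-0.69, -0.64 and 0.68), that of LINC02535 also without BRCA2-deficient replicate 1 (-0.77) and that of LINC00707 without BRCA2-proficient replicate 2 (-0.88). In edgeR none of LINC00665 (adjusted p = 0.0525), LINC02535 (adjusted p = 0.0942) and LINC00886 (adjusted p = 0.0711) was called untreated, and with the replicate number as a block LINC02535 and LINC00886 were not. LINC03072 was lost untreated without any library but BRCA2-deficient replicate 3, and LINC01778 was given no adjusted p in most settings. Under GSK3i LINC00520 lost its call in edgeR (adjusted p = 0.0564) and in 1 model over all groups (adjusted p = 0.413), and LINC01293 in the latter (adjusted p = 0.28) and without BRCA2-deficient replicate 2 (0.65) or 3 (0.76) or BRCA2-proficient replicate 3 (0.75). LINC00707 lost its call without BRCA2-deficient replicate 2 (-0.58) or 3 (-0.73) or BRCA2-proficient replicate 1 (-0.71) or 3 (-0.49). It was also lost in edgeR (adjusted p = 0.0851) and in 1 model over all groups (adjusted p = 0.246).

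Among the microRNA hosts MIR100HG and MIR600HG were called with BRCA2 depletion in untreated cells, or 2 of 19, beside 6.91% of all genes tested. Under GSK3i 0 of 19 hosts were called, beside 6.81% of all genes tested. With 19 hosts these counts are too small to show a difference between untreated and GSK3i cells. MIR100HG, whose 3 main microRNAs are given above, had 1024 and 805 normalised counts in BRCA2-proficient and 1728, 1648 and 1539 in BRCA2-deficient untreated cells (0.82 ± 0.18, adjusted p = 0.000311). Under GSK3i the groups had 870.0, 835 and 751 and 919, 943 and 884. MIR100HG fell with GSK3i in BRCA2-deficient cells (-0.84 ± 0.14, adjusted p = 4.32e-08) and stood at -0.17 ± 0.16, adjusted p = 0.439 in BRCA2-proficient cells. The difference between these GSK3i responses was -0.68 ± 0.19, adjusted p = 0.267. It passed with the replicate number as a block (-0.66, adjusted p = 0.00397) and without BRCA2-proficient untreated replicate 2 (-0.87, adjusted p = 0.0234), while the BRCA2 call itself was lost without BRCA2-proficient untreated replicate 3 (0.65, adjusted p = 0.347). MIR600HG, which overlaps STRBP on the same strand, had 228 and 231 against 123, 97.5 and 117 in untreated cells (-1.06 ± 0.24, adjusted p = 0.000712). Its call was lost without BRCA2-deficient untreated replicate 2 (-0.96, adjusted p = 0.0691), or BRCA2-proficient replicate 2 (-1.07, adjusted p = 0.235) or 3 (-1.05, adjusted p = 0.254). STRBP itself was lower in BRCA2-deficient cells, at -0.96 untreated and -0.93 under GSK3i. Reads from any exon bases that both genes share on 1 strand cannot be told apart, and such sharing was not looked up.

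No member was called in the test of whether BRCA2 status altered the GSK3i response, 0 of 189 in DESeq2 with 7 at an unadjusted p under 0.05, and 0 and 7 in edgeR, beside 0.0345% of 17381 genes called (0.0288% positive and 0.00575% negative). LINC01293 had the largest positive difference among the members named by rule, 1.26 ± 0.31, adjusted p = 0.102, with rises of 0.94 and 2.21 in the 2 backgrounds, and passed with the replicate number as a block (1.2, adjusted p = 0.0286) and without BRCA2-deficient GSK3i replicate 1 (1.36, adjusted p = 0.0297). With the block 2 members were called, LINC01293 and MIR100HG.

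The remaining microRNA hosts changed little. With GSK3i in BRCA2-proficient cells MIR4435-2HG rose (0.54 ± 0.16, adjusted p = 0.0028) while MIR23AHG, host of miR-23a, miR-27a and miR-24, fell from 270.5 and 319.8 normalised counts to 201, 149 and 157 (-0.82 ± 0.22, adjusted p = 0.00122) and MIR137HG fell (-0.63 ± 0.26, adjusted p = 0.0423). In BRCA2-deficient cells MIR23AHG (-0.63 ± 0.28, adjusted p = 0.0778) and MIR137HG (-0.69 ± 0.29, adjusted p = 0.0548) did not pass. The BRCA2-proficient calls of MIR4435-2HG and MIR137HG were lost with the replicate number as a block and without either untreated library, and that of MIR23AHG without untreated replicate 3 (-0.69, adjusted p = 0.129). MIR222HG, host of miR-221 and miR-222, ranged from 47.4 to 244 normalised counts over all libraries and was called in none of the comparisons, at -0.26 ± 0.42, adjusted p = 0.698 with GSK3i in BRCA2-deficient cells. MIRLET7BHG was also called in none, with 17.6 to 82.1, as were MIR31HG, host of miR-31, with 18.1 to 52.0 and MIR210HG, host of the hypoxia microRNA miR-210, which had 127 in BRCA2-proficient untreated replicate 3 and 5.69 to 39.5 in every other library. MIR3667HG, MIR3677HG, MIR378D2HG, MIR3936HG, MIR4453HG and MIR762HG were likewise called in none of the 13 comparisons.

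**Figure D5:**
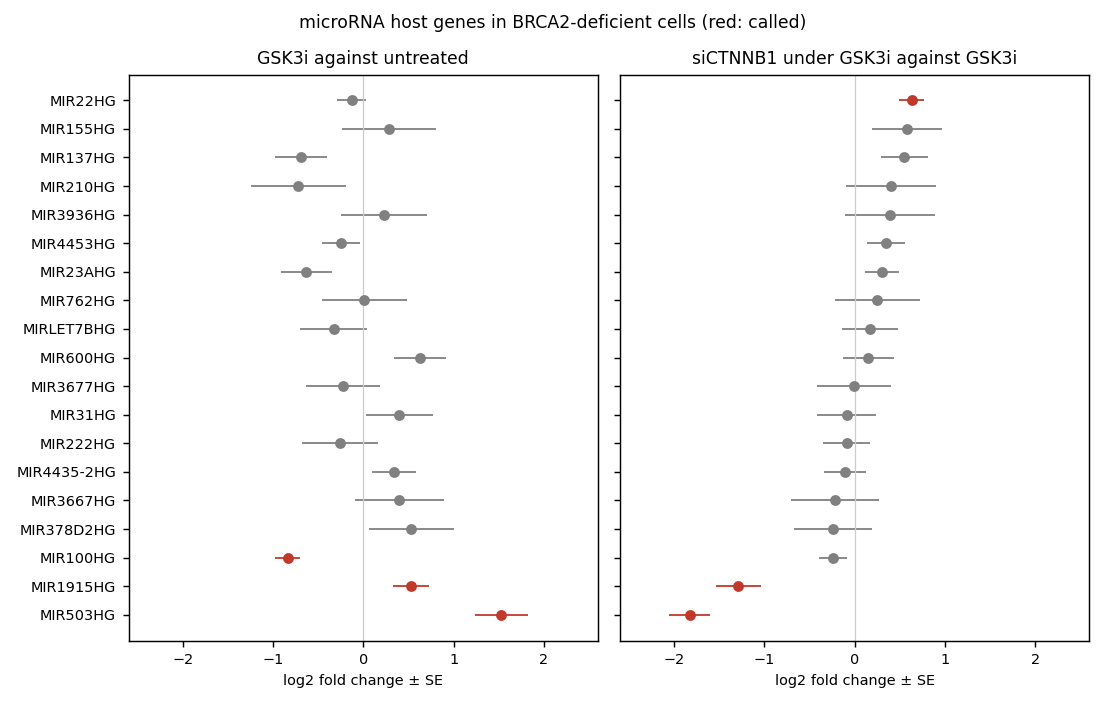
Log2 fold change ± SE (horizontal) of the 19 microRNA hosts in BRCA2-deficient cells, for GSK3i against untreated (left) and for GSK3i+siCTNNB1 against GSK3i (right), in red where called. MIR503HG and MIR1915HG are called higher on the left (1.53 and 0.53) and lower on the right (-1.83 and -1.29), MIR100HG lower on the left and MIR22HG higher on the right; both panels share the GSK3i libraries.

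The genes that cut microRNAs from such transcripts, and those that degrade nuclear non-coding RNA, were followed as lists. Of 14 genes of microRNA maturation, 4 rose and 2 fell with GSK3i in BRCA2-proficient cells and 5 rose and 2 fell in BRCA2-deficient cells, with medians of 0.23 and 0.4 on the log2 scale, where 11.8% and 11.6% of all genes were called higher and 14.2% and 13.8% lower. XPO5, which exports precursor hairpins, rose by 0.92 and 0.97, AGO2, the slicing Argonaute, by 1.05 in BRCA2-deficient cells and DROSHA by 0.64 there, while AGO4 fell (-1.08 and -0.61). Of 18 genes of the nuclear exosome and its adaptors, 7 rose in each background, with medians of 0.36 and 0.44, among them EXOSC4 (1.14 and 0.93) and EXOSC2 (0.87 and 0.85). When siCTNNB1 was added to GSK3i in BRCA2-deficient cells the medians were -0.1 and -0.31, and EXOSC3 was the 1 gene of both lists called (-0.63).

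Other non-coding classes at the same count threshold were set beside the members. Antisense RNA genes had 23 called higher and 69 lower of 345 with GSK3i in BRCA2-proficient cells and 22 and 79 of 346 in BRCA2-deficient cells, with medians of -0.24 and -0.2, close to the members. Genes hosting small nucleolar RNAs (SNHG) went the other way, with 12 of 23 and 11 of 23 called higher, at medians of 0.54 and 0.46. Protein-coding genes were called in 29.7% and 28.4%, with medians of 0.03 and 0.05. No test between classes was made.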

How the data were processed

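RNA-seq was analysed in 22 H1299 libraries of 8 groups. Before depositing the count table, the authors aligned paired reads from stranded poly(A) libraries to GRCh37 with HISAT2 2.0.4, handled files with SAMtools 1.4, removed duplicates with Picard 1.9.2, which in abundant RNAs also removes true copies, and counted uniquely mapped reads per Ensembl gene with featureCounts 1.5.0. These versions are those of the submitters' processing notes; the study's own software list gives other versions of HISAT2, Picard and featureCounts. The annotation release and the strand setting are not given in the sources used here. From these raw counts, each comparison was fitted in DESeq2 1.42.0 (R 4.3.3) on its own groups, without genes under 10 counts in more than 3 libraries, and p-values were adjusted by Benjamini-Hochberg over all genes tested. For interactions, genes with 10 counts in at least 3 libraries were tested. Symbols came from GENCODE v44lift37 for 29629 of 37908 identifiers. The members, lists, named genes and tests were chosen with earlier results of these data known.

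The named members were the 6 with the highest mean normalised count, all microRNA hosts, per comparison the 5 called members, or fewer, that changed most upward and downward among those averaging 50 or more normalised counts whose groups did not overlap, and per interaction up to 3 members of lowest adjusted p in each direction. Members at the count threshold and those of counts of 5 or fewer are also named. Alternatives were other size factors, edgeR 4.0.16, no filter, 1 model over all groups, the replicate number as a block, each library left out in turn and a membership count of 50. Same-numbered libraries deviated together in all 3 pairs (r above 0.1 over 13152 genes) in 6 of 10 comparisons of groups, so the numbers pair the libraries there. The other comparisons had 2 such pairs and could not meet this rule, so it does not decide whether they are paired. The study describes its RNA-seq replicates as independent experiments. Depth sets the counting error only. Python 3.11.15 was used for tables.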

Additional observations from a re-analysis of the deposited data

Results flagged for a closer look

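In BRCA2-deficient cells the interaction test in DESeq2 called a GSK3i response that differed with β-catenin knockdown for LINC00707 (1.16 on the log2 scale, adjusted p = 0.000265) and MIR503HG (-1.69, adjusted p = 0.00573). In edgeR 0 members were called. LINC00707 had an adjusted p of 0.089 there and of 0.526 in 1 model over all groups. MIR503HG was not called without GSK3i replicate 2 or siCTNNB1 replicate 3. In BRCA2-proficient cells the interaction test in DESeq2 gave LINC00665 (-1.1, adjusted p = 0.0101), LINC00886 (2.06), LINC02432 (0.97, adjusted p = 0.00818), LINC02693 (-0.73) and MIR23AHG (1.12, adjusted p = 0.0124). These 5 include the libraries that went against their labels. Without both of these libraries, siCTNNB1 replicate 3 was alone in its arm, so only effect sizes are given here. That replicate lay between the ranges with and without GSK3i. The differences were then -0.71 for LINC00665, 0.93 for LINC02432, 0.91 for LINC00886, -0.52 for LINC02693 and 1.11 for MIR23AHG. With all libraries, edgeR called 0 members in the BRCA2-proficient interaction. No group held more than 3 libraries, so single libraries were not tested for standing apart.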

How the results depend on the processing

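Counts of called members changed by over 1.5 times as follows; the cause was not tested. With edgeR in place of DESeq2, siCTNNB1 under GSK3i called 0 members where BRCA2 was present and 5 where it was depleted, BRCA2 depletion 4 untreated and 6 under GSK3i, siCTNNB1 without GSK3i 0 in both backgrounds, and the GSK3i by siCTNNB1 interaction 0 in both. One model over all groups gave 24 for siCTNNB1 under GSK3i in BRCA2-proficient cells, 2 for siCTNNB1 without GSK3i in BRCA2-deficient cells, and 25 for the BRCA2-proficient and 1 for the BRCA2-deficient interaction. With the replicate number as a block the counts were 26 for GSK3i in BRCA2-proficient cells and 4 for BRCA2 depletion untreated. They were 1 for siCTNNB1 without GSK3i in BRCA2-proficient cells, 2 for BRCA2 status by GSK3i and 6 for the interaction in BRCA2-proficient cells. In the 6 comparisons whose 3 same-numbered pairs all deviated together, no count moved by over 1.5 times. Comparisons with 2 such pairs could not meet that rule. Among them, GSK3i in BRCA2-proficient cells had r of 0.11 and 0.114, and BRCA2 depletion untreated had 0.168 and 0.242. Within the 6 comparisons, the named members LINC00638, MIR137HG, LINC01106 and MIR1915HG (siCTNNB1 under GSK3i, BRCA2-proficient) and LINC01203 (BRCA2 depletion under GSK3i) lost their call. A membership count of 50 left 34 called with GSK3i in BRCA2-deficient cells and 7 in the BRCA2-proficient interaction, from fewer members. Without both libraries that went against their labels, a setting added after seeing the data, GSK3i after siCTNNB1 gave 14 and the interaction 3 in BRCA2-proficient cells.

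Leaving out 1 library at a time, with fewer samples, gave (BRCA2-proficient first) 23 to 44 and 33 to 54 called members for GSK3i, 3 to 15 and 6 to 9 for siCTNNB1 under GSK3i, 1 to 11 for BRCA2 depletion untreated and 6 to 21 under GSK3i, 0 throughout and 25 to 42 for GSK3i after siCTNNB1, 0 to 19 and 1 to 4 for siCTNNB1 without GSK3i, 0 to 1 for BRCA2 status by GSK3i, and 0 to 20 and 1 to 3 for the interaction. The lowest count for GSK3i, 23, was without either BRCA2-proficient untreated library and the lowest for BRCA2 depletion untreated, 1, without replicate 3 of that group; any 1 BRCA2-proficient GSK3i library left out gave 3 to 4 for siCTNNB1 under GSK3i; BRCA2-proficient siCTNNB1 replicate 3, when left out, gave the 19 and the 20, and BRCA2-deficient siCTNNB1 replicate 1 the 25. Where 1 library remained in an arm it was assumed to vary like the others. Of 89 results for named members, none changed direction in any setting; over all settings 830 values stayed on the same side of the threshold, 210 lost a call and 8 gained one, 36 of the losses with edgeR and 134 with a library left out. Members near 20 raw counts rest on few reads per library, and small changes in them were not detectable at this depth.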
